A study of Homo sapiens with 4 samples.

Results

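Accessible chromatin was examined at 7 genes that mark the ovarian and Müllerian epithelial lineage, PAX8, WT1, SOX17, MECOM, EMX2, MUC16 and BNC2, in OVSAHO, an established human ovarian cancer cell line. Members were the ATAC-seq peaks that overlapped each gene's hg19 span or the 10 kb on either side of it. There were 47 such peaks among 78048 on chromosomes 1 to 22 and X, 18 of 23375 narrow peaks and 29 of 54673 broad peaks. The genes were chosen for their role in the lineage and not for their values here, though earlier results of these data were already known. In ATAC-seq a transposase cuts and tags open DNA, narrow peaks were called on the short fragments that span no nucleosome, and broad peaks on all fragments. Test cells, named OVSAHO-A2-siA4 in the labels, had stable SMARCA2 with knockdown of SMARCA4, the alternative ATPases of SWI/SNF chromatin remodellers. Control cells, OVSAHO-Ctrl-siNC, were labelled WT. Both groups had received the platinum drug carboplatin at 25 µM for 2 days, so untreated cells are not part of the design. Each group had 2 libraries, Test_rep1, Test_rep2, Control_rep1 and Control_rep2. The labels do not say that these came from separate cultures, so any p-value covers the spread of these samples, possibly a technical one, and nothing more.

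PAX8, a paired-box factor, SOX17, a partner factor with an HMG box, the homeobox factor EMX2 and the zinc-finger factor WT1 act in the development of the urogenital and Müllerian tract, and PAX8 and WT1 are used by pathologists to recognise serous ovarian carcinoma. MECOM encodes a zinc-finger regulator that is often gained in copy number in this cancer, and BNC2 a zinc-finger protein active in the reproductive tract. MUC16 encodes the large cell surface mucin that sheds the serum tumour antigen CA-125. Lineage factors of this kind are commonly controlled by enhancers inside and around the gene as well as by the promoter.

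Of the merged regions at these genes, 8 of 12 narrow and 13 of 18 broad regions were called in a single library, against 80.7% and 70.4% of all regions. The merged regions seen in several libraries lay over 1 kb from the gene starts. They were inside and upstream of PAX8, inside BNC2, inside MUC16, and just inside and upstream of MECOM. At the SOX17 start, narrow peaks of Test_rep1 and Control_rep2 lay 6 bp apart and so counted as separate regions. The PAX8 sites were called in both test libraries and in Control_rep2. The BNC2 site had narrow peaks in both test libraries alone and broad peaks in these and Control_rep2. One MUC16 site had narrow peaks in both control libraries alone. WT1 had no peak in any of the 8 lists.

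The libraries differed in depth. Narrow peaks rested on 6146272 fragments in Test_rep1, 6885374 in Test_rep2, 15828837 in Control_rep1 and 7531794 in Control_rep2, and the broad lists on 22432549 to 31515662. Control_rep1 stood apart, with 50.2% of its fragments free of nucleosomes against 27.4% to 29.6% in the others, and with 10360 narrow peaks against 3402 to 5442. Group differences in peak number are therefore given with and without Control_rep1. The lowest pileup (fragments over the peak) of any narrow peak was 5 in Control_rep1 and 4 in the other lists, and the lowest of any broad peak was 8, so a site below these levels is not detectable at this depth. Expression was not analysed here, so neither the labels nor the cell type were checked against RNA. Of the 7 gene starts, that of SOX17 alone had a peak within 1 kb in any list. The share of all gene starts with a peak that near was not computed, since no hg19 annotation was used. Whether such an absence is usual was therefore not tested.

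No peak lay within 1 kb of the annotated start of PAX8, BNC2 or MECOM in any of the 8 lists, and each had sites shared by 3 or more libraries elsewhere. The starts of WT1, EMX2 and MUC16 had no peak that near either, and these genes had no site shared by 3 libraries. Only 1 start per gene was checked, the end of its span given by the strand, so any other start was not examined. The promoters of PAX8, BNC2 and MECOM are shown because they combine such shared sites with no call at the start. Each is the 250 bases before the start, 5′ to 3′ on the minus strand that carries the gene, from RefSeq on GRCh38.p14. The build differs from that of the peaks, so no position is given. Capitals mark matches to any of 7 motifs searched on both strands.
PAX8: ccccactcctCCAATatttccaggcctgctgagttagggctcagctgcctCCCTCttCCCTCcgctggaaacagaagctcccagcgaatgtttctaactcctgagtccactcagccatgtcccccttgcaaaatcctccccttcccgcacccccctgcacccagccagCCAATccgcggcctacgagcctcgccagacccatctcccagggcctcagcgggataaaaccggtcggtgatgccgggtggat
BNC2: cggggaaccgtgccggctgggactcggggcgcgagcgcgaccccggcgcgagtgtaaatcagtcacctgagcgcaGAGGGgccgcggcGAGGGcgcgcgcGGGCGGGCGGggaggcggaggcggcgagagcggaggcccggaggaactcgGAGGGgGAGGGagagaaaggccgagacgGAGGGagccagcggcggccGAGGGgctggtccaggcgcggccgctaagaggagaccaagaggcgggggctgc
MECOM: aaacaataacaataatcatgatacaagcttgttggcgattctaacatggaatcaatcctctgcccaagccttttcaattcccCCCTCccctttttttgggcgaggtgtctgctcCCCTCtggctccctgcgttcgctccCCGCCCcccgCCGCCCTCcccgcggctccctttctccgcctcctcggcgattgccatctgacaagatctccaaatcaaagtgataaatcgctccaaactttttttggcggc
RefSeq promoters were matched by symbol for 6 of the 7 genes, all but SOX17. The motifs were the GC box GGGCGG, present in 42.6% of all 35116 RefSeq windows of this length, the CCAAT box CCAAT (32.0%), AP-1 TGANTCA (6.57%), TEAD GGAATG (11.9%), the E-box CACGTG (6.34%), SOX ACAATG (9.29%) and the CTCF core CCCTC (66.6%). The GC box and the CTCF core can share bases, as they do in MECOM. PAX8 held 2 CCAAT boxes and 2 CTCF cores and no GC box. BNC2 held 2 GC boxes and 6 CTCF cores, and MECOM 2 GC boxes and 3 CTCF cores. None of the 3 held the AP-1, TEAD, E-box or SOX letters, which says only that these letters are not in these windows. The BNC2 promoter was rich in CpG, with 36 CpG dinucleotides and 76.8% G and C, more CpG than 95.1% of all windows. PAX8 had 11 CpG and 61.6% G and C, and MECOM 14 and 53.6%, against medians of 11 and 58.0% over all windows. The promoter tables describe sequence and not these cells. A match is not a bound site.

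At SOX17 the start had narrow peaks in Test_rep1 and Control_rep2, and no broad peak in any library. The Test_rep1 peak, on chromosome 8 at 55370452 to 55370522, covered the start itself, with a pileup of 4 and a fold enrichment (the authors' value, pileup over the local background of the same library after 1 fragment is added to each) of 4.21. The Control_rep2 peak at 55370373 to 55370446 had a pileup of 4 and a fold enrichment of 4.18, and ended 0.049 kb upstream of the start. Both were among the weaker peaks of their lists, at percentiles of 7.63 and 7.86 by fold enrichment, and at the lowest pileup those lists hold. The peaks lay 6 bp apart, so they counted as different regions when peaks were merged at 1 bp of overlap and as the same region when peaks within 100 bp were joined. One library of each group was called and one was not. The next narrow peak outside the SOX17 window lay 169 kb away in Control_rep1 and 1604 kb away in Test_rep1 and Test_rep2.

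**Figure D1:**
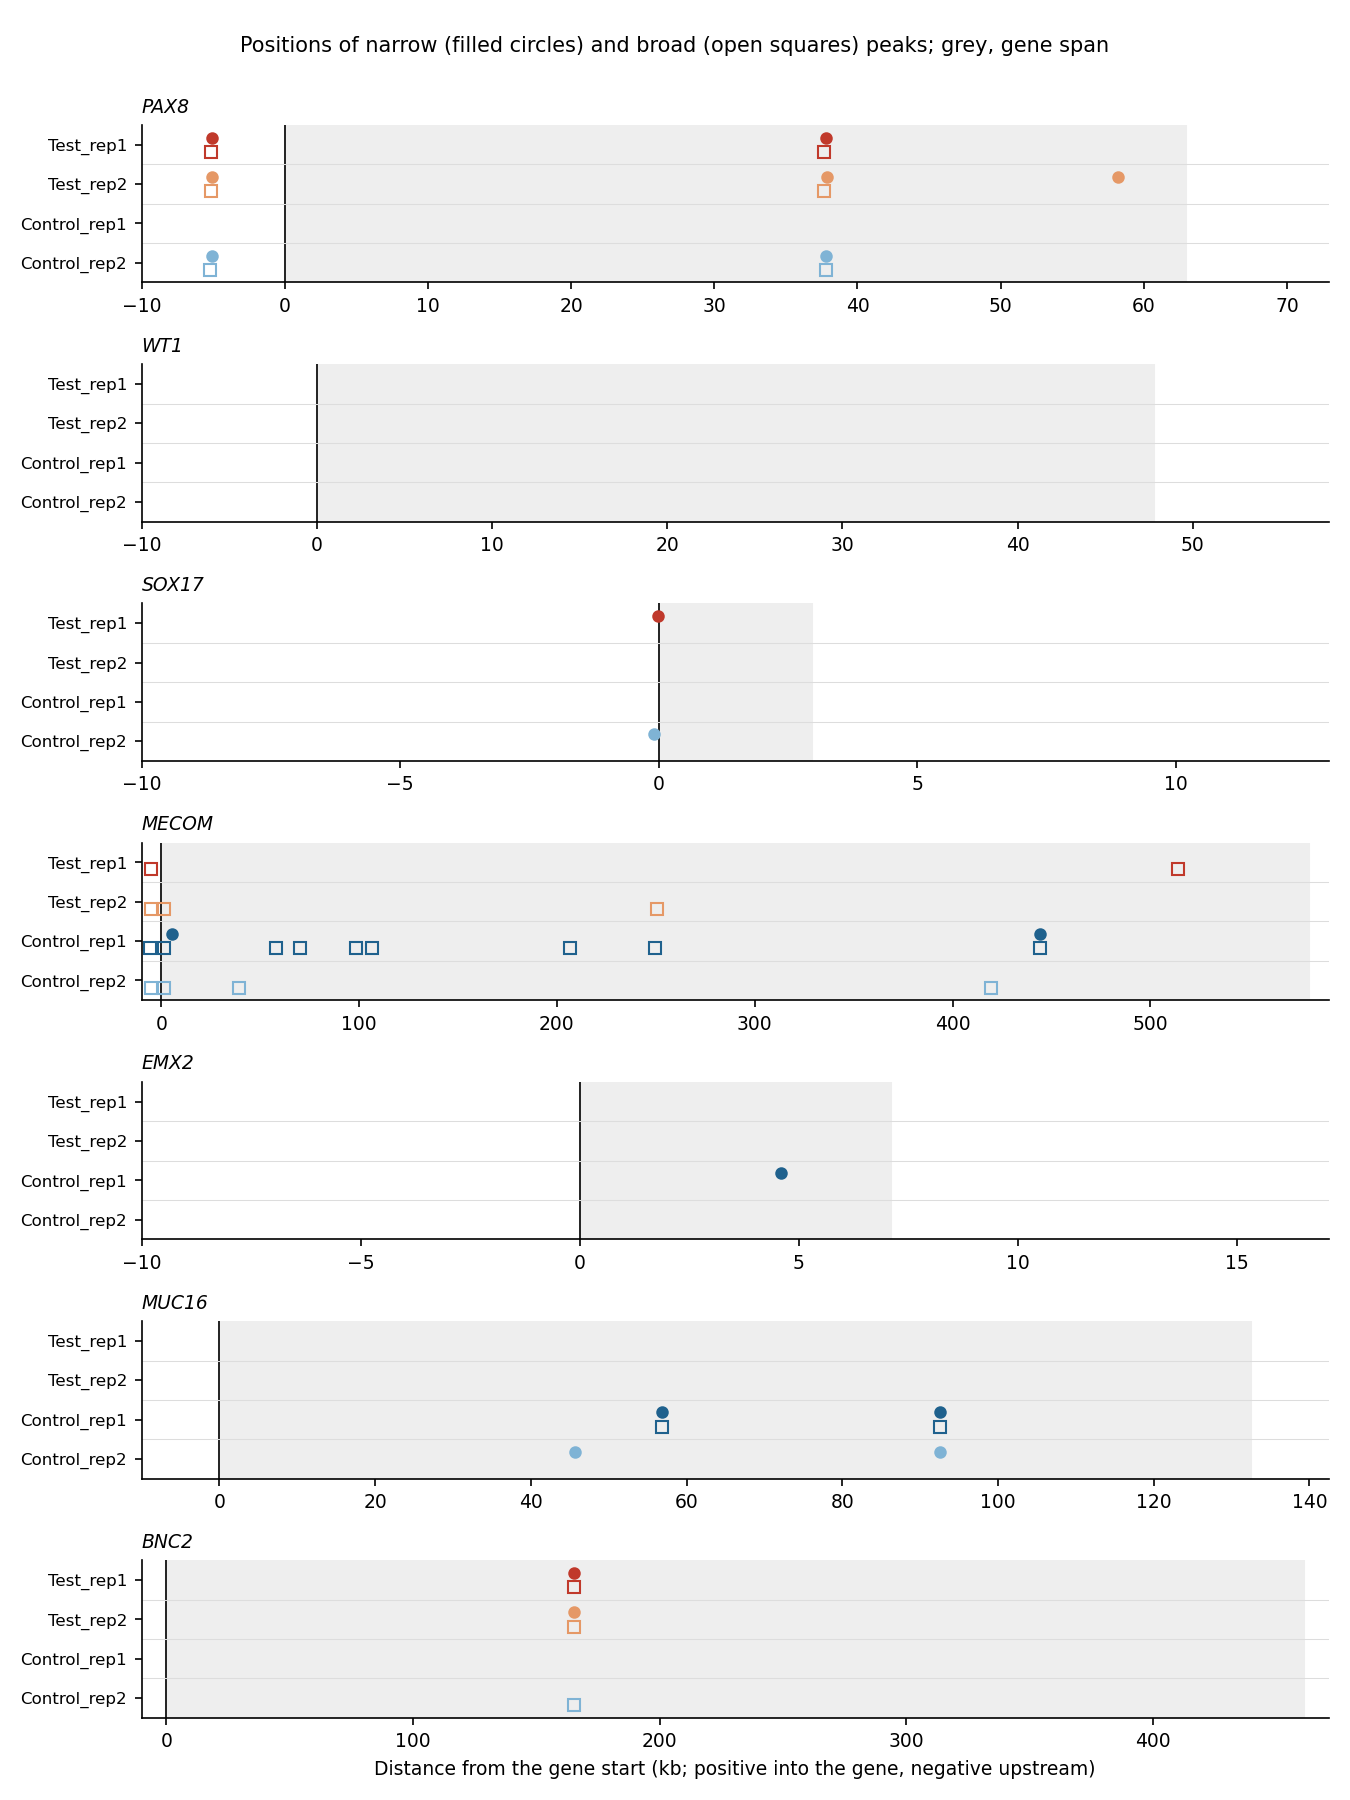
Peaks at the 7 loci by library, against distance from the gene start in kb (negative values are upstream, the grey band is the gene span, filled circles are narrow peaks at their summits, open squares are broad peaks at their midpoints). PAX8 sites line up in Test_rep1, Test_rep2 and Control_rep2, and the BNC2 site stands alone in its gene. Control_rep1 has most of the scattered MECOM calls, and it alone called 38.0% of all broad regions.

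In narrow peaks, PAX8 alone had sites called in 3 libraries, and it had 2 of them. The first lay inside the gene span, 37.7 kb from the start, on chromosome 2 at 113998618 to 113998791. Its narrow fold enrichment was 8.88 in Test_rep1, 7.18 in Test_rep2 and 12.1 in Control_rep2, from pileups of 12, 10 and 19. These were in the upper part of each list, at percentiles of 86.0, 76.3 and 95.5. Control_rep2 had the highest value, and the summits of the 3 libraries fell within 72 bp of each other. A broad peak covered the site in the same 3 libraries, with a fold enrichment of 4.69 in Test_rep1, 4.43 in Test_rep2 and 5.22 in Control_rep2. Control_rep1 had neither a narrow nor a broad peak there. Its nearest narrow peak was 205 kb away and its nearest broad peak 83.0 kb away.

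The second PAX8 site lay upstream of the gene, 5.01 kb from the start, on chromosome 2 at 114041505 to 114041658. Its narrow fold enrichment was 5.34 in Test_rep1, 5.85 in Test_rep2 and 6.66 in Control_rep2, with summits within 34 bp. These were middling values in their lists, at percentiles of 34.1, 55.0 and 68.4. The broad peaks at the site had a fold enrichment of 4.87 in Test_rep1, 4.01 in Test_rep2 and 3.698 in Control_rep2, so the order of the libraries was the opposite of that in narrow peaks. Control_rep1 again had no peak of either kind. Another narrow peak, at 113978192 to 113978300 and 58.2 kb into the gene, was called in Test_rep2 alone. It had a pileup of 4, a fold enrichment of 3.86 and a deposited −log10 q of 1.30, the lowest of the Test_rep2 list. The 2 shared sites were part of a larger class: regions of both test libraries and Control_rep2 without Control_rep1 made up 3.82% of all 17554 merged narrow regions and 10.5% of 36726 broad regions, and here 2 of 12 narrow and 3 of 18 broad regions. At PAX8 the groups cannot be told apart by calls, since Control_rep2 carried both sites and Control_rep1 neither.

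By fold enrichment, the BNC2 site had the highest broad peak of the set in each test library, while in Control_rep2 the first PAX8 site was marginally higher, at 5.22 against 5.18. It lay 165 kb into the gene, on chromosome 9 at 16705281 to 16705503 in narrow peaks and 16705165 to 16705515 in broad peaks. The narrow fold enrichment was 9.08 in Test_rep1 and 9.04 in Test_rep2, each from a pileup of 10, with summits 77 bp apart. Neither control library had a narrow peak at it. The broad fold enrichment was 9.25 in Test_rep1, 7.15 in Test_rep2 and 5.18 in Control_rep2, from pileups of 23.8, 17.9 and 13.1. In the test lists this was among the highest of all broad peaks, at percentiles of 99.6 and 99.2, and in Control_rep2 it was at 89.6. Control_rep1 had no broad peak at it, and its nearest lay 648 kb away. The site was thus called in 1 control library by the broad list, and in the test cells alone by the narrow lists. Fold enrichment was not normalized between libraries, so the higher test values are a description.

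The BNC2 site was isolated. It was the single peak in the 481286 bp window of the gene in every list that called it. The nearest narrow peak outside the window lay 1696 kb beyond the window's edge in Test_rep1, Test_rep2 and Control_rep2. Broad peaks came closer, at 846 kb in Test_rep1 and Control_rep2 and 359 kb in Test_rep2. The local background of the BNC2 site was low. Over the genome-wide background of the same library, the local background was 1.36 in Test_rep1 and 1.31 in Test_rep2 in narrow peaks, and 1.14, 1.05 and 1.003 in Test_rep1, Test_rep2 and Control_rep2 in broad peaks. The median of whole lists was 1.73 to 2.33 in narrow and 1.40 to 1.64 in broad peaks. PAX8 differed in this measure, with 2.77 to 3.59 at its 2 shared narrow sites and 2.51 to 2.94 in broad peaks. The 10 kb background window holds the peak itself and its neighbours, so a cluster of cuts around a site raises this ratio as well. Copy number at these genes was not tested.

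**Figure D2:**
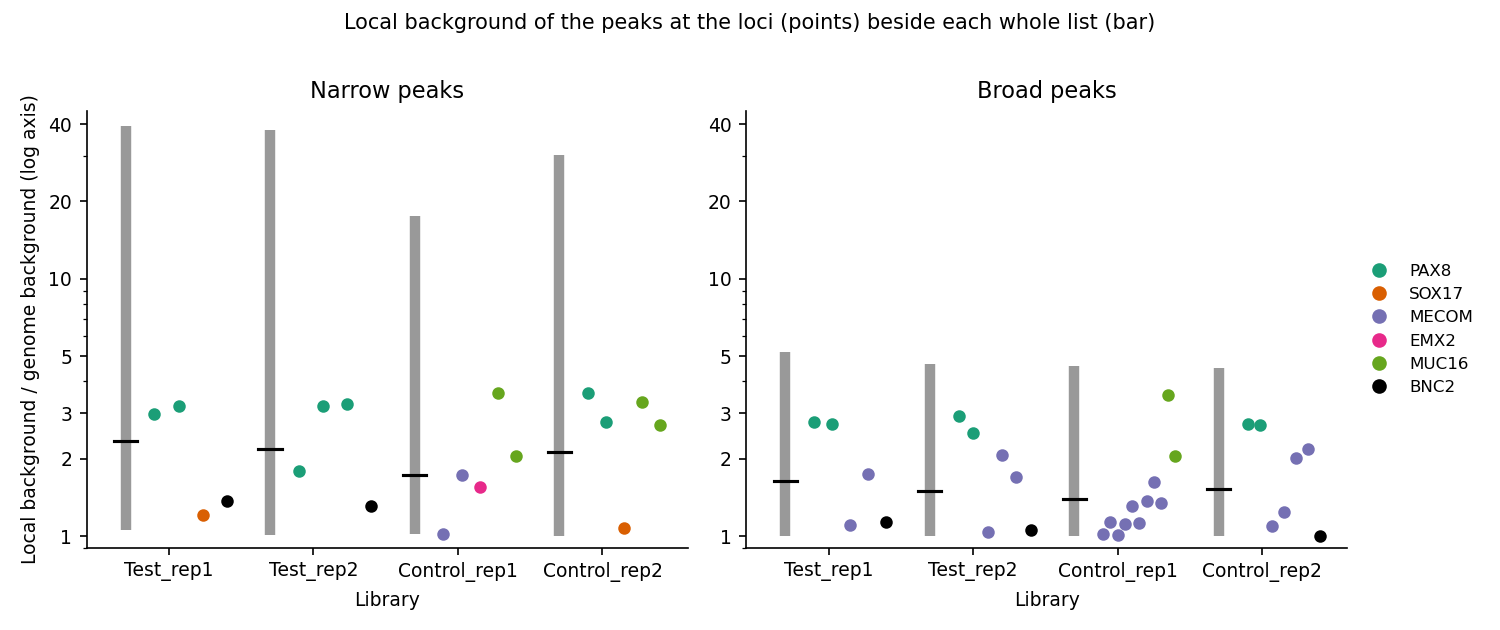
Local background of each peak at the loci over the genome-wide background of its library (log axis), points coloured by gene, beside the 5th to 95th percentile (grey bar) and median (black line) of the whole list. PAX8 and MUC16 points lie mostly above the list medians and BNC2 points below them in every library that called it.

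MUC16 had the opposite pattern of calls to BNC2 in narrow peaks. A site on chromosome 19 at 8999335 to 8999485, 92.5 kb into the span, was called in Control_rep1 with a fold enrichment of 7.35 and in Control_rep2 with 6.25, from pileups of 16 and 9. Neither test library had a narrow peak at it, and their nearest lay 55.7 kb away. The summits of the control libraries were 29 bp apart. In broad peaks the same site was called in Control_rep1 alone, with a fold enrichment of 3.30, which is low in that list at a percentile of 26.3. A second site at 9035100 to 9035183 was called in Control_rep1 alone, with a narrow fold enrichment of 8.03 and a broad fold enrichment of 4.41. These were strong within their lists, at percentiles of 91.6 and 94.5. Another at 9046300 to 9046376 was called in Control_rep2 alone, with a narrow fold enrichment of 4.69. Each control library thus had 2 narrow peaks in the gene and each test library had 0. The call shared by the controls did not reach a −log10 q of 5 in Control_rep2, where it was 4.74. Local background at these narrow peaks was 3.61 and 2.05 times the genome-wide level in Control_rep1 and 3.31 and 2.71 in Control_rep2. The medians of these whole narrow lists were 1.73 and 2.12.

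The MUC16 span used here is 132499 bp long, while the RefSeq span of the gene on GRCh38.p14 is 216908 bp, so a start further upstream was not examined. Just outside the window, 5.88 kb to 6.01 kb beyond its edge on the side of the gene's end, all 4 libraries had a narrow peak on chromosome 19 between 8943297 and 8943636. Its fold enrichment was 11.2 in Test_rep1, 9.05 in Test_rep2, 4.34 in Control_rep1 and 11.0 in Control_rep2. No narrow region at the 7 genes was called in all 4 libraries, against 3.86% of all narrow regions.

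MECOM, the longest gene of the set, had the most broad peaks, 2 in Test_rep1, 3 in Test_rep2, 9 in Control_rep1 and 4 in Control_rep2. They fell in 13 regions, of which 11 were called in 1 library, 7 of these in Control_rep1. The peaks of these 11 regions were weak, with a pileup of 8 to 9.92, a fold enrichment of 3.32 to 3.65 and a −log10 q of 1.36 to 1.89. The MECOM regions shared by several libraries were the pair nearest the start. The first, on chromosome 3 at 169386380 to 169387133 and 4.82 kb upstream, was the sole region of the set called in all 4 libraries, which 3.04% of all broad regions were. Its −log10 q was 1.41 in Control_rep1, and the 4-library call was lost at a −log10 q of 5 or more, in lists of equal length and, since it lies upstream, with no flank. Its fold enrichment was 5.05 in Test_rep1, 3.69 in Test_rep2, 3.27 in Control_rep1 and 3.79 in Control_rep2, so Test_rep1 was highest and Control_rep1 lowest and the groups overlapped. The second, at 169379813 to 169380208 and 1.36 kb inside the gene, had a fold enrichment of 3.10 in Test_rep2, 3.60 in Control_rep1 and 3.51 in Control_rep2, and no peak in Test_rep1. Neither had a narrow peak in any library. Narrow peaks at MECOM were called in Control_rep1 alone, at 168937391 to 168937456 with a fold enrichment of 5.83 and at 169376200 to 169376283 with 5.52.

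EMX2 had a single call and WT1 none. At EMX2, Control_rep1 had 1 narrow peak on chromosome 10 at 119306527 to 119306590, 4.57 kb into the gene, with a pileup of 6 and a fold enrichment of 4.48. No broad peak was called at EMX2, and the closest call beyond its window was a Control_rep1 narrow peak 3.38 kb outside, with a fold enrichment of 4.06. Around WT1 the nearest narrow peaks lay 69.6 kb outside the window in Control_rep2, 138 kb in Test_rep2, 139 kb in Control_rep1 and 716 kb in Test_rep1. In broad peaks the nearest was 25.2 kb outside the window in Test_rep2 and 138 kb in the other 3 libraries. The absence of a call at WT1 does not show that the gene is closed, given the pileups needed for a call.

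**Figure D3:**
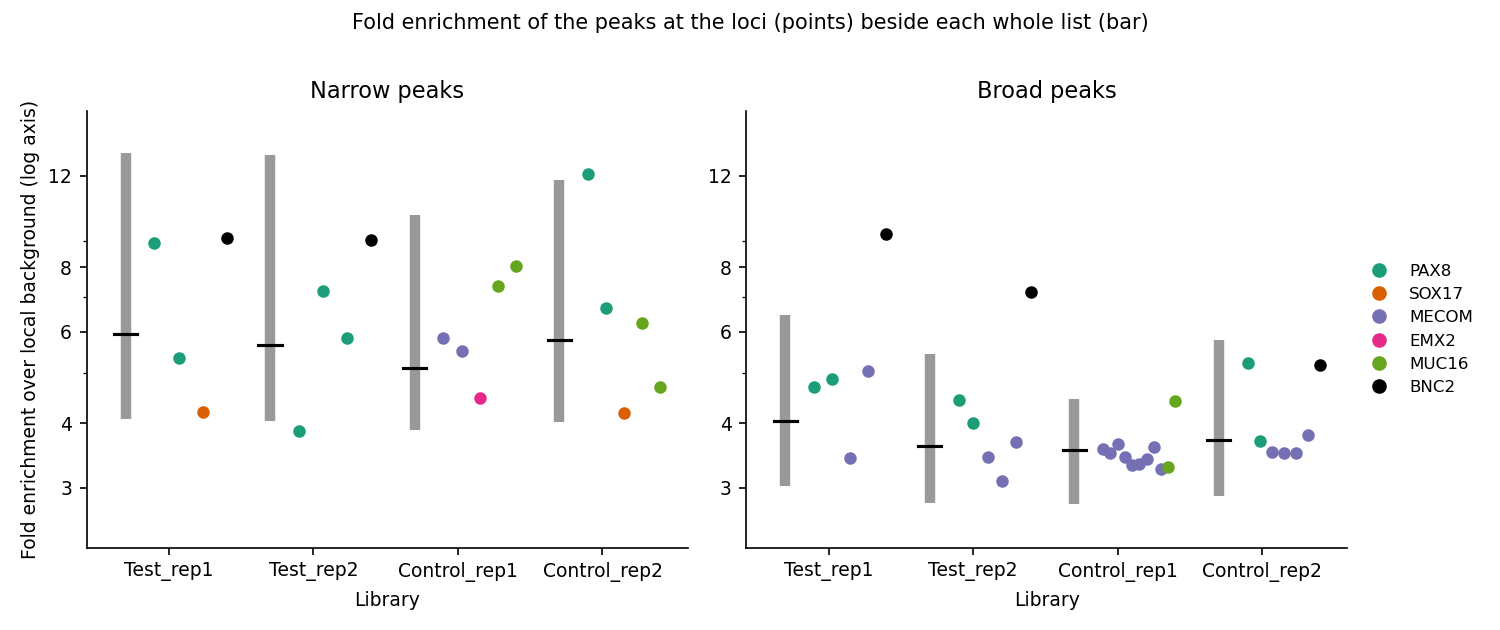
Fold enrichment of each peak at the loci (log axis), points coloured by gene, beside the 5th to 95th percentile (grey bar) and median (black line) of all peaks of the same list. The BNC2 broad peaks of Test_rep1 and Test_rep2, at 9.25 and 7.15, lie above the bar, and the PAX8 narrow peak of Control_rep2, at 12.1, lies just above its bar, which ends at 11.8.

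Summed over the 7 genes, Test_rep1 and Test_rep2 had 4 narrow peaks each and Control_rep1 and Control_rep2 had 5 each. The control excess of 1 peak had p = 0.33 when all 6 assignments of libraries were compared by exact permutation (two-sided), and 2 against 2 libraries allow none smaller. It was also 1 without Control_rep1, as the equal counts within each group require. Broad peaks numbered 5 in Test_rep1, 6 in Test_rep2, 11 in Control_rep1 and 7 in Control_rep2. The means were 9.0 ± 2.83 in control and 5.5 ± 0.707 in test libraries (SD, n = 2 per group, exact permutation p = 0.33). The broad excess was 1.5 peaks without Control_rep1 and 3.5 with all libraries, made up of 4 at MECOM, 1 at MUC16, −0.5 at BNC2 and −1 at PAX8. Without Control_rep1 the MECOM difference was 1.5, and those at MUC16, BNC2 and PAX8 were 0. Both excesses changed sign in lists of equal length, to −1 narrow and −0.5 broad. At a −log10 q of 5 or more the narrow excess was 0 and the broad excess −2. Per 1000000 fragments the narrow excess was −0.126 and the broad excess 0.0734.

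**Figure D4:**
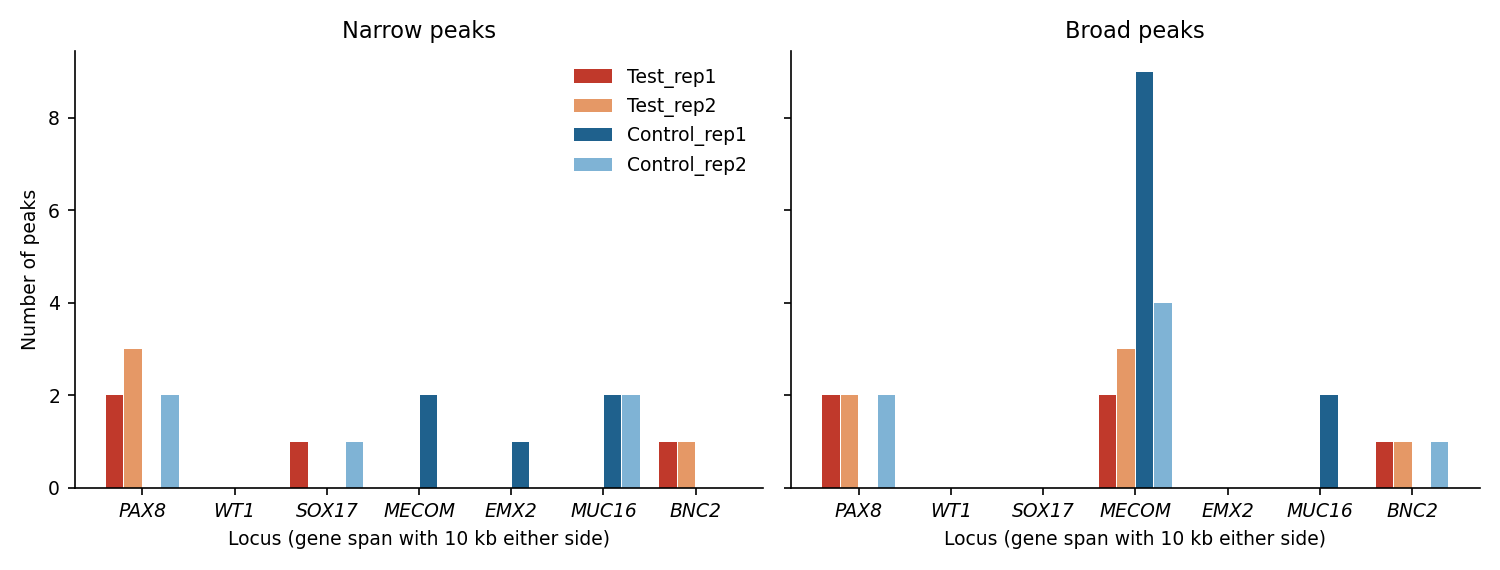
Number of narrow (left) and broad (right) peaks at each locus in each library (bars start at 0, 1 bar per library). The largest bar is the 9 broad peaks of Control_rep1 at MECOM, and no library has a peak at WT1.

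Peaks were denser at these genes than over the genome in 3 of the narrow lists, and in 2 of the broad lists. The windows covered 1.43 Mb in all and held 2.79 narrow peaks per Mb in each test library and 3.48 in each control library. Over the effective genome the rates were 1.26 in Test_rep1, 1.54 in Test_rep2, 3.84 in Control_rep1 and 2.02 in Control_rep2. Control_rep1 was the library whose rate at the genes lay below its own genome rate. In broad peaks the genes held 3.48, 4.18, 7.67 and 4.88 peaks per Mb in Test_rep1, Test_rep2, Control_rep1 and Control_rep2, against 3.29, 5.16, 6.85 and 4.95 over the genome. No test was made of these rates, since the counts are 4 to 11 peaks a library.

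The merged narrow regions numbered 12, of which 1 (BNC2) was called in the test libraries alone, both of them (test-only), and 1 (MUC16) in the control libraries alone, both of them (control-only). Each of these patterns held 1.25% of all narrow regions. At least 2 libraries called 4 of the 12 narrow regions, against 19.3% of all, and 5 of 18 broad regions, against 29.6%. A single library called 8 of the 12, against 80.7% of all narrow regions, and Control_rep1 alone called 4, against 49.9%. Of 18 broad regions, 13 were called in a single library, against 70.4% of all broad regions, and 9 in Control_rep1 alone, against 38.0%. No broad region at these genes was test-only or control-only, against 1.03% and 1.24% of all broad regions. When 1 control library was left out, control-only meant called in the kept control library and in neither test library. Shares over all regions were not computed for these settings. Without Control_rep2 there were 3 test-only narrow regions, because both PAX8 sites joined BNC2, and 5 control-only ones. Without Control_rep1 there were 1 and 3. The PAX8 pattern therefore follows which control library is kept.

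Narrow and broad calls met at some sites and not at others. A broad peak of the same library overlapped 3 of 4 narrow peaks in Test_rep1, 3 of 4 in Test_rep2, 3 of 5 in Control_rep1 and 2 of 5 in Control_rep2, where whole lists had 71.1%, 60.9%, 42.8% and 67.1%. All 6 narrow peaks at the shared PAX8 sites and both BNC2 narrow peaks lay in a broad peak of their library. The SOX17 and EMX2 narrow peaks and both Control_rep2 narrow peaks at MUC16 were among those that did not. Narrow peaks in regions called in 2 or more libraries had a −log10 q of 3.06 to 17.5, and those called in 1 library 1.30 to 8.62, with a MUC16 peak of Control_rep1 the highest of the latter. These ranges overlap.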

How the data were processed

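ATAC-seq peak lists of 4 OVSAHO libraries were used, 2 of test and 2 of control cells, grouped by their labels. Per the file headers, MACS2 2.2.7.1 called peaks in each library on its own, on paired-end fragments, with no control sample, duplicates kept, a q threshold of 0.05 and a background range of 10 kb. The deposited pileup is a coverage signal in fragments, the deposited p and q are on the −log10 scale, and the fold enrichment the authors deposited is the ratio of pileup to local background, with 1 added to each. The added 1 is the usual MACS2 setting and is not in the headers. With it, the lowest local background of each list came to 1.002 to 1.016 times the genome-wide one. Local background was below 1 fragment at most narrow peaks here, so the added 1 lowers their fold enrichment greatly. None is normalized between libraries, so values serve to describe peaks within a list. A deeper library can pass the threshold at weaker sites. The submitters' processing notes name hg19, cutadapt 3.2 and Bowtie2 2.3.5.1.

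Coordinates are 1-based on hg19. Peaks on chromosomes 1 to 22 and X that share 1 bp were merged into regions. Local background was computed as (pileup + 1) / fold enrichment − 1, over fragments × mean fragment length / effective genome size. For broad peaks, whose values are means, it is approximate. Group means were compared with an exact permutation test over libraries. Strands came from the RefSeq table, and that of SOX17 from general knowledge. Exons, introns and other marker genes were not analysed here, since no hg19 annotation was used. The plan was to name narrow regions shared by 2 or more libraries, regions near a start and those called in 1 group alone. Per gene it added the single-library region of highest fold enrichment percentile, with other broad regions given by number and range. Some further sites are named, such as the weaker single-library narrow peaks at MUC16 and MECOM and the shared MECOM broad regions. The 3 promoters were chosen after values were seen, and the members and lists were chosen with earlier results of these data known. Merging was tested on simulated data, where 4000 of 4000 regions were recovered both for separated and for partly overlapping peaks. Peaks of the same simulated site always overlapped and different sites lay far apart, so this checked the code only. Close neighbours, such as the SOX17 peaks, were not simulated. Python 3.11.15, numpy 2.4.6, pandas 2.3.3 and matplotlib 3.10.9 were used.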

Additional observations from a re-analysis of the deposited data

How the results depend on the processing

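The alternatives were a −log10 q of 5 or more, lists of equal length, no flank or a flank of 50 kb, merging only at 50% overlap of the shorter peak or already within 100 bp, peaks per 1000000 fragments, a replicate block and each library left out. Control minus test in narrow peaks was 0 at the stricter q, −1 at equal lengths and −0.126 per 1000000 fragments (0.0734 in broad peaks), and in broad peaks −2 at the stricter q and −0.5 at equal lengths. At the stricter q the MECOM broad difference was −0.5. By construction, equal lengths shorten the longer lists and the rate divides by depth. The stricter q removed peaks from every list. Of the broad peaks it kept 32.1% in Test_rep1, 14.3% in Test_rep2, 5.33% in Control_rep1 and 25.4% in Control_rep2. Control-only narrow regions numbered 0 at the stricter q, and control-only broad regions 1 at equal lengths. Broad regions in all 4 libraries numbered 0 at the stricter q, at equal lengths and with no flank, and 2 with a flank of 50 kb, where 1 narrow region was in all 4. No share over all regions was computed for the region counts of these settings. The cause of these changes in differences and region counts was not tested.

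Leaving out each library gave 1 in every case for the narrow difference, which the equal counts within each group fix in advance. The broad difference was 1.5 to 5.5. There were 1 to 3 test-only and 1 to 5 control-only narrow regions, and 0 to 3 test-only and 0 to 9 control-only broad regions. Regions in all libraries kept numbered 0 to 2 narrow and 1 to 4 broad. With 1 library left in a group, test-only or control-only covers calls of that library alone within its group. No share over all regions was computed for these counts. The replicate block gave differences of 1 and 3.5, which by construction equal those of the main setting with 2 libraries per group. It had p = 0.5 in an exact two-sided sign-flip test, the smallest that 2 pairs allow. The labels give no shared source for equal replicate numbers. Over bins of 5 Mb, the Test_rep1 minus Test_rep2 difference in percent of each list was compared with the Control_rep1 minus Control_rep2 difference. The correlation was −0.498 in narrow and −0.782 in broad peaks. Each difference rests on single libraries, and Control_rep1 is one of them.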
